A study of Mus musculus with 4 samples.

Results

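The 10 homeostatic microglia genes *P2ry12*, *P2ry13*, *Tmem119*, *Cx3cr1*, *Gpr34*, *Siglech*, *Sall1*, *Csf1r*, *Fcrls* and *Olfml3* were taken by their gene names from tables that together hold 33981 genes, and 10 of 10 were found, each under 1 identifier. RNA was sequenced from a coronal brain section that included the prefrontal cortex, in 24 libraries of male C57BL/6J mice aged 3 to 5 months. Over 28 days a subcutaneous infusion gave saline to NT (normotensive) mice and angiotensin II, 0.28 mg/kg each day, to HT (hypertensive) mice, and each mouse had sham surgery or a photothrombotic stroke, in which light clots vessels that carry a photosensitive dye, 7 days after the infusion began. There were 6 libraries each of NT + Sham, HT + Sham, NT + Stroke and HT + Stroke, and each numbered library was treated as 1 mouse. The labels describe each group as 1 sample, so that *P* values measure the spread between these libraries. The brains were collected on day 28, so the sections show the tissue weeks after the stroke. Angiotensin II is a model of 1 form of hypertension, and a section holds infarct and surrounding tissue together.

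Microglia are the resident macrophages of the brain. In the undisturbed brain they survey the tissue through receptors for nucleotides and chemokines, and depend on signals through the receptor Csf1r and on TGF-beta for their survival and identity. After injury many of them take on a reactive state, in which homeostatic genes such as *P2ry12* and *Tmem119* are known to be lowered in single cells while phagocytic and lipid-handling genes are raised. In a bulk section the level of a gene depends on the number of cells and on the RNA per cell, and fewer or more cells cannot be told apart from less or more RNA per cell.

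The genes lie on 7 chromosomes in the deposited annotation, whose positions were the same as in the mouse GENCODE release M21 on GRCm38 for 9 of 10 genes. On chromosome 3 were *P2ry12* (chr3:59216272-59262871, minus strand), *P2ry13* (chr3:59207892-59210882, minus strand), *Fcrls* (chr3:87250758-87263738, minus strand) and *Olfml3* (chr3:103722222-103738001, minus strand). *Tmem119* was at chr5:113793729-113800516 (minus strand), *Siglech* at chr7:55768178-55778925 (plus strand), *Sall1* at chr8:89027235-89044162 (minus strand), *Cx3cr1* at chr9:119901616-120069879 (minus strand) and *Gpr34* at chrX:13632089-13640858 (plus strand). *Csf1r* had another start in GENCODE. Exons of *P2ry12* overlap those of *Med12l*, exons of *Csf1r* those of *Hmgxb3* and exons of *Cx3cr1* those of *Gm33858*, each on the opposite strand. Whether the counting used strand is not given in the sources used here, so reads of these pairs could not be told apart.

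The table of RefSeq promoters on GRCm38.p6 matched 7 of 10 genes. The 250 bases before the start are shown for the 4 of these genes that reached higher levels in every NT + Stroke library than in any NT + Sham library, and for *P2ry12*, which did not pass the test in that comparison. They are written 5′ to 3′ on the minus strand, and capitals mark GAGGAA, the core of many binding sites of the myeloid factor PU.1, searched on both strands. The windows are *P2ry12* chr3:59262986-59263235, *P2ry13* chr3:59210883-59211132, *Cx3cr1* chr9:120068297-120068546, *Fcrls* chr3:87263525-87263774 and *Olfml3* chr3:103738002-103738251.
P2ry12: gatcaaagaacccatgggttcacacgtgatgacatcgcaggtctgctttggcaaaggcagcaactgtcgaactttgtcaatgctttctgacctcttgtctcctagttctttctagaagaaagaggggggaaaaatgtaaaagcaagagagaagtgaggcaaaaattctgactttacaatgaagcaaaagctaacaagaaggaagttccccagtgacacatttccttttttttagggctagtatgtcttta
P2ry13: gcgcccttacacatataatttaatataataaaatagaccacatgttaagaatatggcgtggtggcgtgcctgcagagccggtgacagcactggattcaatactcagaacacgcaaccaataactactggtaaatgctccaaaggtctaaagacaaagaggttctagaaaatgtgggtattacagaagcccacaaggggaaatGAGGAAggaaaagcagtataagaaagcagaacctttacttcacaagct
Cx3cr1: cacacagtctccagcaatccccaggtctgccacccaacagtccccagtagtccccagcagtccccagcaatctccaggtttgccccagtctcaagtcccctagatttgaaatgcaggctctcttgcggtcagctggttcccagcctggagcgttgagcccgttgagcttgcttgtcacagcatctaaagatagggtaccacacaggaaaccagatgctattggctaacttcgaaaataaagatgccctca
Fcrls: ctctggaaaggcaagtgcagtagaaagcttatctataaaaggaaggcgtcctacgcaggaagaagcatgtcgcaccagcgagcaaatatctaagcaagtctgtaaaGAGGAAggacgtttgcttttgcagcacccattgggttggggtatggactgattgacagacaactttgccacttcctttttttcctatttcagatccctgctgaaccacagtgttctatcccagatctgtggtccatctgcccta
Olfml3: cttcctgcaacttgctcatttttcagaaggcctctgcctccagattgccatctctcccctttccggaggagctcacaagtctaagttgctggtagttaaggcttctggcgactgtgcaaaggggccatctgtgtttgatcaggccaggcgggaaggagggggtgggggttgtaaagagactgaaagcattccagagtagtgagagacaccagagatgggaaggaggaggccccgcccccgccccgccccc
The motif stood once in the window of *P2ry13* and once in that of *Fcrls*. It was found in 2 of the 9 windows that the table holds for these 7 genes, and in 23.3% of the 32851 windows of this length in the table. A match is a description of the letters only.

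The total count per library was 15922919 to 24865998, with a median of 18497216. Cortical neuron genes were abundant in every group, with summed levels of 6047 to 9016 CPM, counts scaled to library size with TMM factors. Genes of the olfactory bulb had summed levels of 74.2 to 817 CPM over the libraries and genes of the striatum 352 to 2748 CPM. 3 libraries stood apart from their groups in the summed level of 18 disease-associated microglia genes. The list is taken to mark reactive microglia, but its sum is led by genes that are abundant in sham libraries too. *Apoe*, *Ctsb* and *Ctsd* had average log2 CPM of 11.4, 9.26 and 8.23 over the sham libraries, against 1.11 for *Lgals3*. The library HT + Sham 6 had 6461 summed CPM of the 18 genes, against 3504 to 4747 in the other 11 sham libraries. The libraries HT + Stroke 1 and HT + Stroke 6 had 4844 and 4584 summed CPM, against 6477 to 13755 in the other 10 stroke libraries. *Apoe*, which astrocytes express too, made up 53.4 to 72.01% of this sum, and the sum without it was 2055 CPM in HT + Sham 6 and 1729 and 1749 CPM in HT + Stroke 1 and 6, against 1586 to 1676 in the other sham and 2186 to 4063 in the other stroke libraries. *Lgals3*, encoding galectin-3, had 16.1 CPM in HT + Sham 6 and 2.79 and 3.12 CPM in HT + Stroke 1 and 6, against 0.10 to 1.15 CPM and 8.41 to 85.1 CPM. The mean log2(CPM + 1) of 7 olfactory bulb genes was 6.36 in HT + Sham 6, the highest of the 24 libraries. It was 3.03 and 3.69 in HT + Stroke 1 and 6, and 2.99 in HT + Stroke 2, which did not stand apart. Whether label, stroke or section position set the 3 libraries apart was not tested, and all HT values rest on the labels as given. Results of the 10 genes in comparisons that hold these libraries are therefore given with and without them. Leaving them out was chosen after these levels were seen, and since they were chosen by an injury readout, a larger difference without them is no independent evidence.

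Levels were compared between genes per length, as FPKM, the reads of a gene scaled by its length and by library size. In NT + Sham, *Csf1r*, the receptor for the cytokines that sustain microglia, had 16.1 ± 1.16 FPKM (mean ± SD, n = 6) and *Tmem119*, a membrane protein used to mark microglia, had 16.1 ± 1.78 FPKM, and their ranges overlapped. *Fcrls*, an Fc receptor-like protein, followed with 10.3 ± 1.12 FPKM and *P2ry12*, the ADP receptor that steers microglial processes, with 9.52 ± 1.004 FPKM. Neither of these ranges reached that of *Tmem119*, and *Fcrls* and *P2ry12* overlapped. The fractalkine receptor *Cx3cr1* stood alone at 6.96 ± 0.82 FPKM, and below it *Gpr34*, *Sall1*, *Olfml3*, *Siglech* and *P2ry13* had means of 3.42 to 4.40 FPKM, with ranges that overlapped between neighbours. In NT + Stroke the order of the first 3 genes was the same and *Cx3cr1*, with 10.7 ± 0.71 FPKM, ranked above *P2ry12*, with 10.2 ± 0.99 FPKM, though their ranges overlapped.

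**Figure D1:**
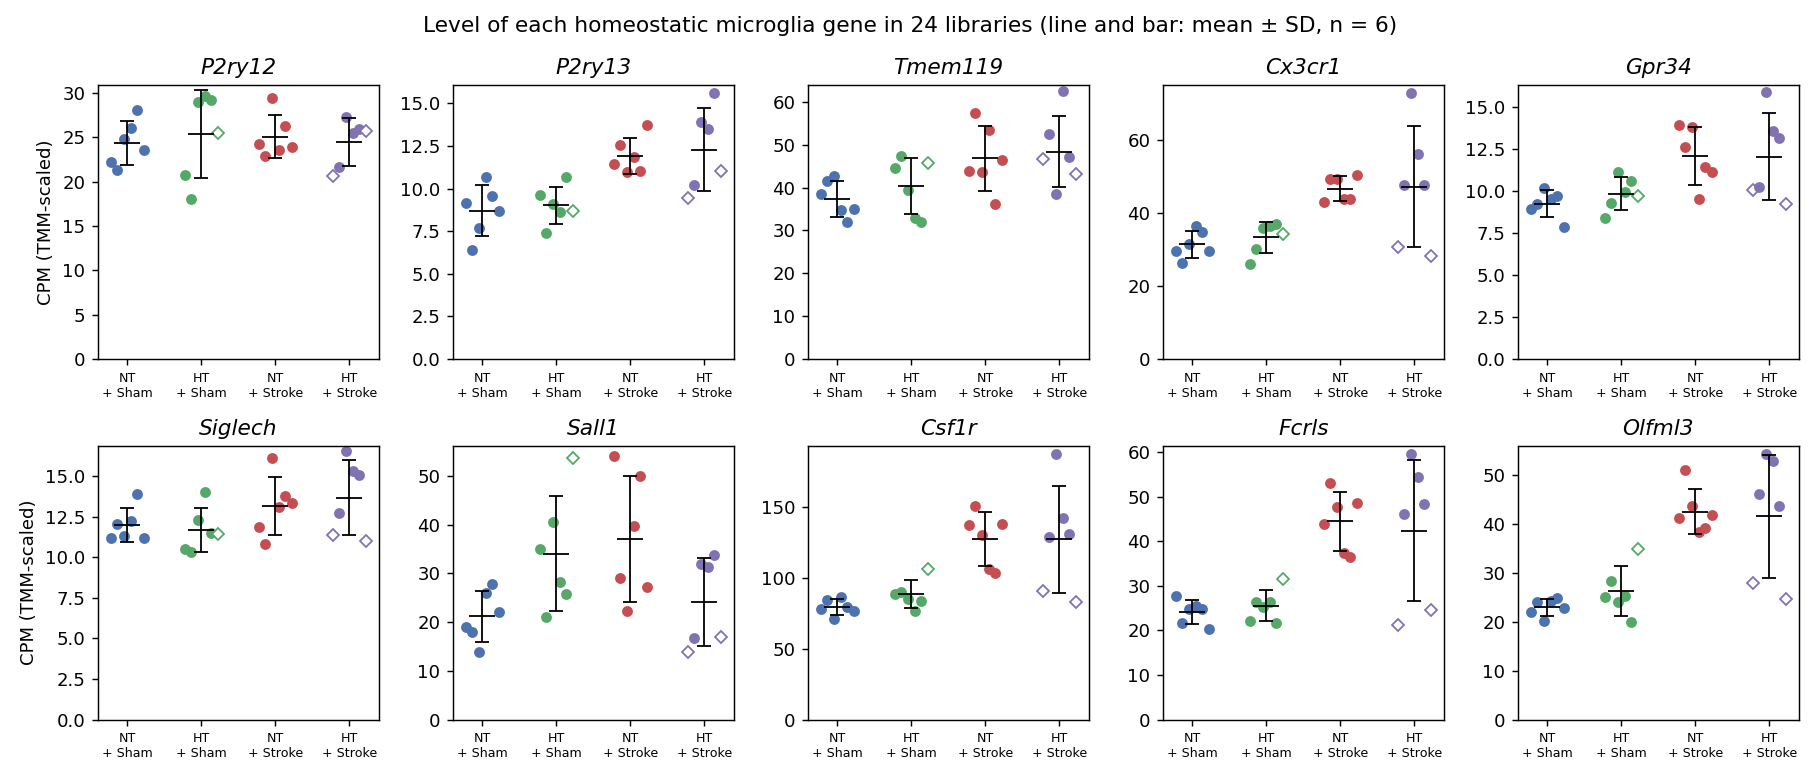
CPM of each gene (y axis, from 0) by group (x axis), 1 point per library, with the mean ± SD of 6 libraries. Open diamonds are HT + Sham 6, HT + Stroke 1 and HT + Stroke 6, of which the HT + Stroke libraries lie within the range of the sham libraries in *Csf1r*, *Fcrls* and *Olfml3* and HT + Sham 6 is the highest of its group. The groups overlap in *P2ry12*.

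NT + Stroke vs NT + Sham asked how the genes stood after stroke without hypertension. 8 of 10 genes rose and none fell, and the median log2 fold change of the 10 was 0.52, against -0.01 for all genes. In this comparison 25.9% of 16835 genes were called at an adjusted *P* under 0.05 and 14.4% were called higher. The 2 that did not pass were *P2ry12* and *Siglech*. Summed over the 10 genes, the level was 258 to 292 CPM in NT + Sham and 371 to 450 CPM in NT + Stroke.

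*Olfml3*, a secreted matrix-associated protein, had 20.2 to 24.8 CPM in NT + Sham (median 23.4) and 38.4 to 51.1 CPM in NT + Stroke (median 41.6). Its log2 fold change was 0.89 ± 0.08 (SE; edgeR, adjusted *P* = 2.46e-07). *Fcrls* had 20.3 to 27.8 CPM (median 24.9) in NT + Sham and 36.5 to 53.0 CPM (median 45.7) in NT + Stroke. Its log2 fold change was 0.88 ± 0.10 (SE; edgeR, adjusted *P* = 4.19e-06). In both genes every NT + Stroke library was above every NT + Sham library.

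The same was true of the receptors *Csf1r* and *Cx3cr1* and of *P2ry13*, a second ADP receptor. *Csf1r*, at chr18:61105572-61132149 (plus strand), had 70.6 to 86.3 CPM (median 78.6) in NT + Sham and 103 to 151 CPM (median 134) in NT + Stroke, a log2 fold change of 0.69 ± 0.09 (SE; edgeR, adjusted *P* = 1.40e-05). *Cx3cr1* had 26.4 to 36.6 CPM (median 30.7) in NT + Sham and 43.1 to 50.5 CPM (median 46.8) in NT + Stroke, a log2 fold change of 0.57 ± 0.08 (SE; edgeR, adjusted *P* = 2.55e-05). *P2ry13* had 6.42 to 10.7 CPM (median 8.93) in NT + Sham and 11.0 to 13.7 CPM (median 11.6) in NT + Stroke, a log2 fold change of 0.46 ± 0.11 (SE; edgeR, adjusted *P* = 0.0051). Thus 5 of 10 genes did not overlap between the groups, as did 7.67% of 17608 genes with all NT + Stroke libraries higher.

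The smaller changes overlapped between the groups. *Gpr34*, a lysophosphatidylserine receptor, had 7.84 to 10.2 CPM (median 9.40) in NT + Sham and 9.53 to 13.9 CPM (median 12.01) in NT + Stroke, with 5 of 6 stroke libraries above every sham library. Its log2 fold change was 0.39 ± 0.10 (SE; edgeR, adjusted *P* = 0.0099). *Tmem119* had 32.1 to 42.8 CPM (median 36.7) in NT + Sham and 36.1 to 57.4 CPM (median 45.1) in NT + Stroke, also with 5 of 6 above. Its log2 fold change was 0.33 ± 0.10 (SE; edgeR, adjusted *P* = 0.021), and with all 4 groups in one fit the adjusted *P* was 0.052.

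*P2ry12* did not pass the test. It had 21.3 to 28.1 CPM (median 24.2) in NT + Sham and 22.9 to 29.5 CPM (median 24.1) in NT + Stroke, and 3 of 6 stroke libraries were above the sham median. Its log2 fold change was 0.05 (95% interval -0.12 to 0.22; edgeR, adjusted *P* = 0.73). *Siglech*, a sialic acid-binding lectin that plasmacytoid dendritic cells also express, had 11.2 to 13.9 CPM (median 11.7) in NT + Sham and 10.8 to 16.1 CPM (median 13.2) in NT + Stroke. Its log2 fold change was 0.14 (95% interval -0.06 to 0.35; edgeR, adjusted *P* = 0.32), which leaves room for a small rise.

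**Figure D2:**
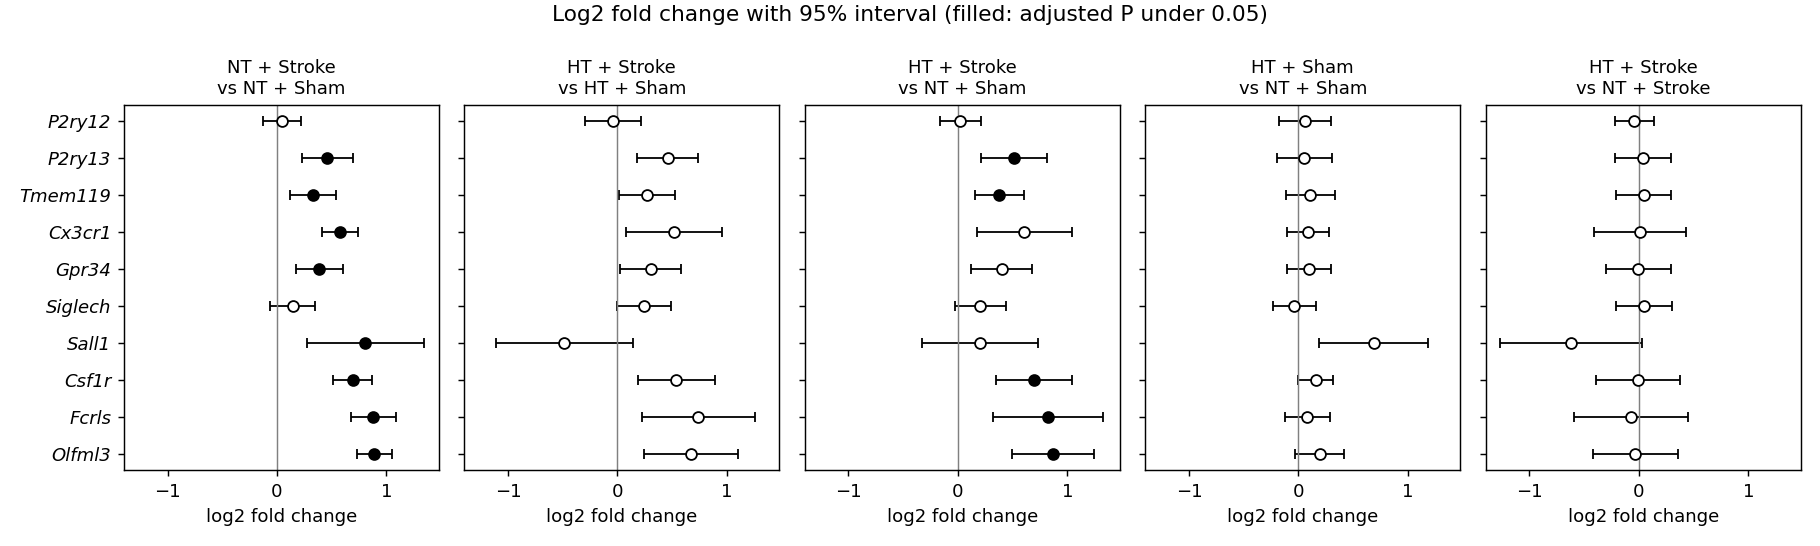
Log2 fold change (x axis) of each gene (y axis) in 5 comparisons, with 95% intervals from edgeR; filled points had an adjusted *P* under 0.05. 8 points are filled in NT + Stroke vs NT + Sham, 5 in HT + Stroke vs NT + Sham and none in the other panels, and *P2ry12* lies near 0 throughout.

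*Sall1*, a transcription factor that maintains microglial identity, was the only one of the 10 genes called for a score of olfactory bulb genes. It had 13.97 to 27.9 CPM (median 20.6) in NT + Sham and 22.3 to 54.2 CPM (median 34.3) in NT + Stroke, with 4 of 6 stroke libraries above every sham library, and its log2 fold change was 0.81 ± 0.25 (SE; edgeR, adjusted *P* = 0.031). The olfactory bulb score, the mean log2(CPM + 1) of 7 genes of that region, was 3.57 to 4.74 in NT + Sham and 4.32 to 6.22 in NT + Stroke. Over the 24 libraries with group terms in the fit, *Sall1* rose by 0.59 ± 0.07 log2 units (SE) per unit of the score (edgeR, adjusted *P* = 2.00e-06), where 1.73% of 17608 genes were called. None of the other 9 genes was called for this score, with coefficients of -0.05 to 0.17. All of these but *Tmem119* had positive coefficients, 0.09 to 0.17, above the median absolute coefficient of all genes, 0.07. *Gpr34* alone of the 9 had an unadjusted *P* under 0.05 (edgeR, 0.032). The missing calls therefore do not show that these genes are free of the score. For the striatal score 0.522% of genes were called, and none of the 10.

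With both scores as covariates, the log2 fold change of *Sall1* in NT + Stroke vs NT + Sham was 0.03 (edgeR, adjusted *P* = 0.96). In that fit 4 of 10 genes were called, among 3.73% of 16835 genes, and these were *Cx3cr1*, *Csf1r*, *Fcrls* and *Olfml3*. *P2ry13*, *Tmem119* and *Gpr34* kept positive log2 fold changes of 0.71, 0.62 and 0.36 with adjusted *P* of 0.052, 0.053 and 0.46. *Sall1* is also expressed by cells other than microglia in the developing and adult brain, and which cells gave its reads was not tested.

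**Figure D3:**
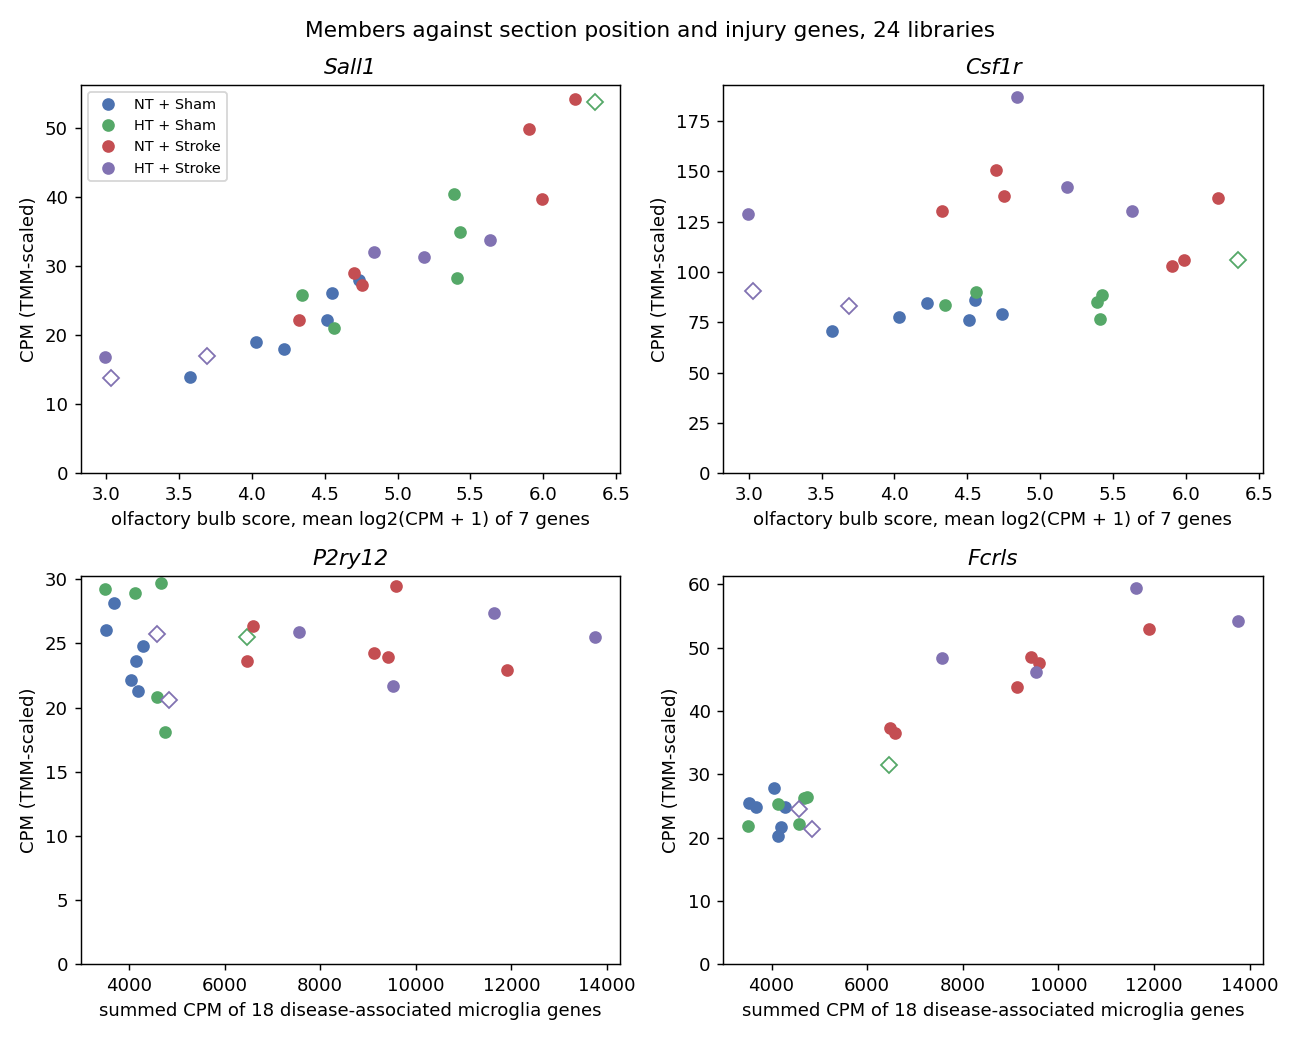
CPM (y axes, from 0) of *Sall1* and *Csf1r* against the olfactory bulb score, and of *P2ry12* and *Fcrls* against the summed CPM of 18 disease-associated microglia genes, for 24 libraries coloured by group, with the libraries that stand apart as open diamonds. *Sall1* climbs from 13.9 to 54.2 CPM with the score in all groups together, and *Fcrls* is higher in libraries with a higher sum while *P2ry12* is not.

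Other genes listed for the same compartment were read beside the 10. Of 20 other homeostatic microglia genes, 14 rose, none fell, and the median log2 fold change was 0.60. The 3 with the smallest *P* were *Sparc* (1.01), a matrix protein, *Hpgds* (1.14), a prostaglandin D synthase, and *Itgb5* (0.93), an integrin subunit. *Bin1* and *Sparc* had an average log2 CPM of 8.56 and 8.16 in this comparison, against 0.20 to 6.58 for the rest of this list. A bulk section does not show which cells gave the reads of these genes, and this was not tested. Of 14 pan-myeloid genes, which microglia share with other macrophages, 14 rose, with a median of 1.57 and a range of 0.70 to 2.29. The smallest *P* were those of *Ptprc* (1.82), the leukocyte common antigen, *Cd53* (1.51), a tetraspanin, and *Ly86* (1.38), a partner of a Toll-like receptor homologue. Of 18 disease-associated microglia genes, 16 rose, with a median of 1.29. Among these were *Spp1* (3.20), encoding osteopontin, *Cd63* (1.13), a lysosomal tetraspanin, and *Cd9* (1.10), another tetraspanin. The lists were chosen with earlier results of these data known.

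**Figure D4:**
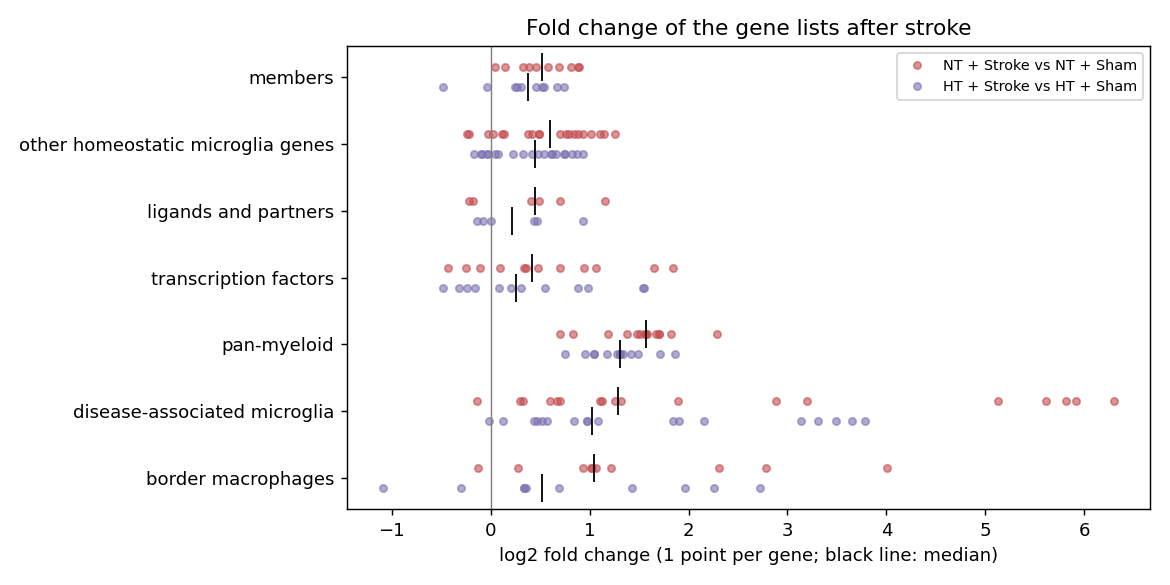
Log2 fold change (x axis) of every gene tested in 7 lists (y axis) after stroke in NT and in HT mice, 1 point per gene, with the median as a black line. In NT mice the medians of the 10 genes (0.52) and of the other homeostatic genes (0.60) lie below those of the pan-myeloid (1.57) and disease-associated (1.29) genes.

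Relative to the pan-myeloid genes of the same library, the 10 genes were lower after stroke, as were most genes of the table. The relative level, log2(CPM) of a gene minus the mean log2(CPM) of the 14 pan-myeloid genes, was lower in NT + Stroke than in NT + Sham for 10 of 10 genes, with a median difference of -0.94, and 7 of 10 did not overlap between the groups. Over 17608 genes on this scale the median difference was -1.47, 97.0% of genes were lower and 77.2% did not overlap, so the members' count is not particular to them. This follows from the larger fold changes of the pan-myeloid list and is given as a description, with no test. *P2ry12* had 0.35 ± 0.24 (SD, n = 6) in NT + Sham and -1.07 ± 0.41 in NT + Stroke, a difference of -1.42. *Siglech* differed by -1.33, *Tmem119* by -1.15 and *Gpr34* by -1.08. *Fcrls* and *Olfml3*, which had the largest fold changes of the 10 in CPM, had the smallest relative differences, -0.59 and -0.58. The same pan-myeloid mean is taken from every gene of a library, so this order follows from the fold changes and is no second result. In HT mice the median difference was -0.79, 10 of 10 genes were lower, and 1 of 10, *Sall1*, did not overlap, where 4.54% of 17608 genes were lower without overlap and the median of all genes was -1.15. Without the libraries that stand apart, the median difference in HT mice was -1.26 and 8 of 10 did not overlap, where 86.5% of genes did not and the median of all genes was -1.75.

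**Figure D5:**
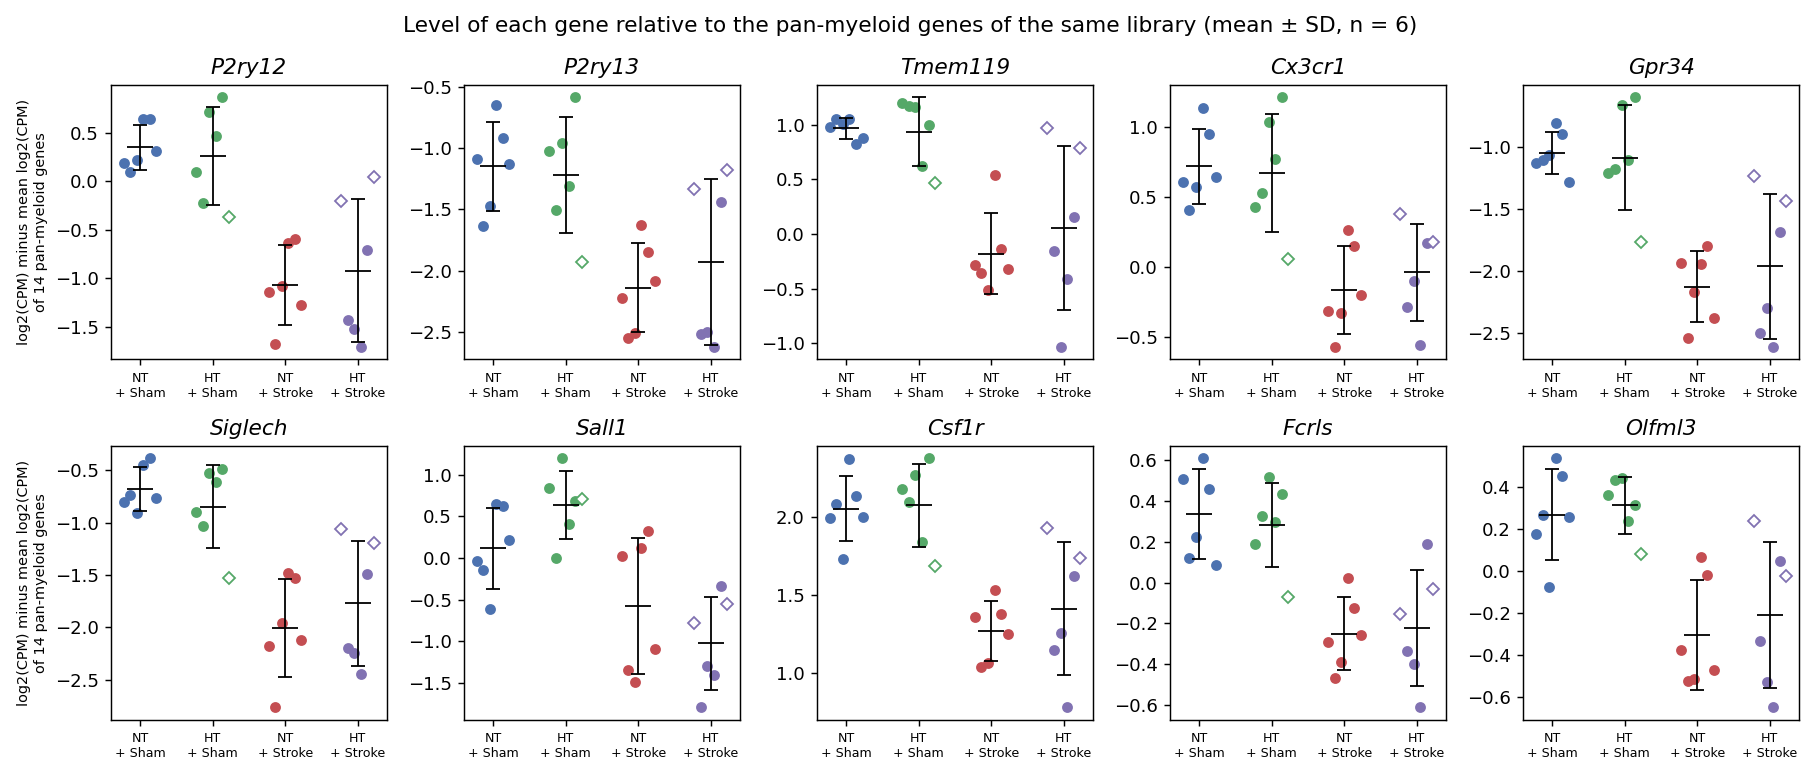
Log2 level of each gene minus the mean of 14 pan-myeloid genes (y axis) by group (x axis), 1 point per library with mean ± SD of 6, open diamonds for the libraries that stand apart. The mean of NT + Stroke lies below that of NT + Sham in every panel, by 1.42 log2 units for *P2ry12* and by 0.58 for *Olfml3*.

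Markers of other myeloid cells moved in the same direction. Of 11 genes of border macrophages, 10 were tested in NT + Stroke vs NT + Sham and 8 rose, with the smallest *P* for *Ms4a7* (log2 fold change 4.01), *Mrc1* (1.07) and *Siglec1* (2.78). Their summed level was 32.2 to 41.8 CPM in NT + Sham, 33.4 to 74.2 in HT + Sham, 63.7 to 136 in NT + Stroke and 37.7 to 177 in HT + Stroke. Of 9 genes of monocytes and neutrophils, 7 were tested and 6 rose, with the smallest *P* for *Cd44* (2.32), *Plac8* (3.54) and *Ccr2* (1.83). Their summed levels were 12.99 to 15.9, 12.7 to 21.3, 21.4 to 59.3 and 12.7 to 51.6 CPM in the same order of groups. In the sham libraries this sum was led by *Vcan*, with an average log2 CPM of 3.38, against 1.16 for *Cd44*. *Vcan* did not pass in NT + Stroke vs NT + Sham (log2 fold change 0.08; edgeR, adjusted *P* = 0.56). *Chil3* had no count in 4 libraries, all sham. *Csf1r* and *Cx3cr1* are also expressed by border macrophages and monocytes, whose part in the results was not tested.

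Of 7 genes of plasmacytoid dendritic cells, which share *Siglech*, 4 were tested and 2 rose, the interferon-induced *Bst2* (1.45) and *Irf7* (1.16). Their summed level was 188 to 212 CPM in NT + Sham and 181 to 220 CPM in NT + Stroke, but 72.7 to 92.2% of it was *Tcf4*, a gene of neurons too, whose log2 fold change was -0.17 (edgeR, adjusted *P* = 0.052). Without *Tcf4* the sum was 18.02 to 26.4 CPM in NT + Sham and 28.01 to 38.9 CPM in NT + Stroke, with no overlap. The defining markers *Ccr9* and *Klk1* were not tested, and *Klk1* had no count in 11 of 24 libraries. Of 10 genes of fibroblasts and mural cells, 5 rose, with the smallest *P* for *Dcn* (2.47), *Pdgfrb* (0.66) and *Lum* (2.89). Of 8 genes of cortical neurons, 7 fell, with the smallest *P* for *Neurod6* (-0.83), *Fezf2* (-0.77) and *Tbr1* (-0.58).

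Ligands and partners of the receptors did not share 1 direction. Of 6, 4 rose and 1 fell in NT + Stroke vs NT + Sham. *Csf1*, a ligand of Csf1r, rose by 0.70 (edgeR, adjusted *P* = 3.93e-06), while *Il34*, the other ligand, which neurons make, fell by 0.22 (edgeR, adjusted *P* = 0.043). *Cx3cl1*, the neuronal ligand of Cx3cr1, had a log2 fold change of -0.18 and did not pass (edgeR, adjusted *P* = 0.067). *Tgfb1*, which encodes the TGF-beta that microglia depend on, rose by 1.15 (edgeR, adjusted *P* = 2.11e-05). *Entpd2*, an ectoenzyme that mainly converts ATP to ADP, the ligand of P2ry12 and P2ry13, and *Nt5e*, which converts AMP to adenosine, rose by 0.41 and 0.49 (edgeR, adjusted *P* = 0.0079 and 0.017).

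Of 12 transcription factors listed for microglia and macrophages, 8 rose and 2 fell. The myeloid factors *Irf8* (1.65), *Runx1* (1.84), *Spi1* (1.07), which encodes PU.1, and *Cebpa* (0.95) had the largest rises. *Sall3* (0.70), a relative of *Sall1*, *Bhlhe41* (0.35) and *Maf* (0.34) rose by less. *Mef2c* (-0.43) and *Bhlhe40* (-0.25), both also expressed by neurons, fell. *Smad3* (-0.11) and *Mef2a* (0.09) did not pass, with adjusted *P* of 0.33 and 0.43 (edgeR).

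HT + Stroke vs HT + Sham asked the same of stroke under hypertension. None of the 10 genes was called, where 0.645% of 16741 genes were called and 0.544% were called higher. At an unadjusted *P* under 0.05 (edgeR), 7 of the 10 were higher and none lower, where 17.0% of genes passed in either direction. *Olfml3* had 20.003 to 35.0 CPM (median 25.2) in HT + Sham and 24.6 to 54.3 CPM (median 45.0) in HT + Stroke, a log2 fold change of 0.68 ± 0.20 (SE; edgeR, adjusted *P* = 0.12). *Fcrls* had 21.8 to 31.4 CPM (median 25.8) and 21.3 to 59.4 CPM (median 47.3), a log2 fold change of 0.74 ± 0.24 (SE; edgeR, adjusted *P* = 0.14). In both genes the groups overlapped, and the lowest HT + Stroke libraries were the 2 with few injury transcripts.

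*Csf1r* had 76.5 to 106 CPM (median 86.8) in HT + Sham and 83.2 to 187 CPM (median 130) in HT + Stroke, a log2 fold change of 0.54 ± 0.17 (SE; edgeR, adjusted *P* = 0.12). *Cx3cr1* had 26.2 to 37.2 CPM (median 35.2) and 28.3 to 72.9 CPM (median 47.7), a log2 fold change of 0.52 ± 0.20 (SE; edgeR, adjusted *P* = 0.22). For *P2ry13*, *Gpr34*, *Tmem119* and *Siglech* the log2 fold changes were 0.46, 0.30, 0.27 and 0.24. *P2ry12* had 18.1 to 29.7 CPM (median 27.2) in HT + Sham and 20.6 to 27.3 CPM (median 25.6) in HT + Stroke, and its log2 fold change was -0.04 (95% interval -0.30 to 0.22). *Sall1* had 21.1 to 53.7 CPM (median 31.6) and 13.9 to 33.7 CPM (median 24.2), a log2 fold change of -0.48 (95% interval -1.11 to 0.14), and the olfactory bulb score was 4.35 to 6.36 and 2.99 to 5.63.

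Without HT + Sham 6, HT + Stroke 1 and HT + Stroke 6, 5 of the 10 were called higher, where 8.47% of 16956 genes were called. These were *Fcrls* (log2 fold change 1.10), *Olfml3* (1.01), *Csf1r* (0.80), *Cx3cr1* (0.76) and *P2ry13* (0.55), with adjusted *P* of 4.65e-05 to 0.029 (edgeR). *Cx3cr1* was 47.7 to 72.9 CPM in the remaining 4 HT + Stroke libraries and 30.8 and 28.3 CPM in the 2 left out, against 26.2 to 37.2 CPM in the remaining HT + Sham libraries. With all libraries, DESeq2 called 4 genes, among 2.79% of 32562 genes fitted, and edgeR with all 4 groups in one fit called 4, among 6.39% of 17608. In both these were *P2ry13*, *Csf1r*, *Fcrls* and *Olfml3*. Of the 14 pan-myeloid genes none was called in HT + Stroke vs HT + Sham by edgeR with all libraries, though 14 were higher at an unadjusted *P* under 0.05, and their median log2 fold change was 1.30. Of the 20 other homeostatic genes none was called, 10 were higher at an unadjusted *P* under 0.05, and the median was 0.45. The 6 ligands and partners and the 12 transcription factors had medians of 0.22 and 0.25, with none called. At an unadjusted *P* under 0.05 (edgeR), 3 of these ligands and partners were higher and none lower. Of these transcription factors 6 were higher and 2 lower at that threshold.

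In HT + Stroke vs NT + Sham, which shares its groups with the comparisons above, 5 of 10 genes rose, where 14.7% of 16749 genes were called and 8.38% called higher. These were *Olfml3* (log2 fold change 0.87), *Fcrls* (0.82), *Csf1r* (0.70), *P2ry13* (0.51) and *Tmem119* (0.38), with adjusted *P* of 0.011 to 0.033 (edgeR). *Cx3cr1* (0.60) and *Gpr34* (0.40) had adjusted *P* of 0.061 and 0.053. *P2ry12* had 0.02 (95% interval -0.17 to 0.21) and *Siglech* 0.21 (95% interval -0.03 to 0.44). Without HT + Stroke 1 and 6, 8 of 10 were called, where 20.6% of 17168 genes were, and *Siglech* was among them, with a log2 fold change of 0.33 (edgeR, adjusted *P* = 0.033). The others called were *Fcrls* (1.12), *Olfml3* (1.11), *Csf1r* (0.91), *Cx3cr1* (0.85), *P2ry13* (0.63), *Gpr34* (0.53) and *Tmem119* (0.43). *Sall1* (0.44) and *P2ry12* (0.06) were not called in this fit. With all libraries and the olfactory bulb and striatal scores as covariates none of the 10 was called, where 0% of genes were. With the library number as a replicate block 2 were called, where 4.6% were, and with any 1 library left out 2 to 7 were called.

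Hypertension without stroke, HT + Sham vs NT + Sham, called none of the 10 genes and 0% of 16581 genes in edgeR, with 8.03% at an unadjusted *P* under 0.05, *Sall1* among them, and DESeq2 and limma called 0 genes. *Sall1* had the largest difference, 0.69 (95% interval 0.19 to 1.18; edgeR, unadjusted *P* = 0.010, adjusted *P* = 0.47), and the olfactory bulb score was 3.57 to 4.74 in NT + Sham and 4.35 to 6.36 in HT + Sham. For the other 9 genes the log2 fold changes were -0.04 to 0.19, and that of *P2ry12* was 0.06 (95% interval -0.18 to 0.30). None of the 10 had groups that did not overlap. Without HT + Sham 6, *Sall1* had a log2 fold change of 0.51 (95% interval 0.11 to 0.90; edgeR, unadjusted *P* = 0.016, adjusted *P* = 0.91), and those of the other 9 genes were -0.03 to 0.10.

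HT + Stroke vs NT + Stroke called none of the 10 and 0% of 17008 genes in edgeR, with 7.23% of genes but none of the 10 at an unadjusted *P* under 0.05, and DESeq2 and limma called 0 genes. Apart from *Sall1* (-0.62, 95% interval -1.27 to 0.03), the log2 fold changes were -0.07 to 0.05. The interval was -0.22 to 0.14 for *P2ry12* and -0.59 to 0.45 for *Fcrls*, so differences in *Fcrls* of the size seen after stroke in NT mice lay outside it, and smaller ones could not be told from 0 at this spread. *Cx3cr1* spanned 43.1 to 50.5 CPM in NT + Stroke and 28.3 to 72.9 CPM in HT + Stroke.

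Without HT + Stroke 1 and 6, none of the 10 and 0% of 17421 genes were called, and the log2 fold changes other than that of *Sall1* (-0.39, 95% interval -1.03 to 0.25) were -0.01 to 0.26. Those of *Gpr34*, *Csf1r*, *Fcrls* and *Olfml3* turned from negative to positive, 0.13, 0.20, 0.22 and 0.21. *Cx3cr1* had 0.26 (95% interval 0.02 to 0.49) and *Olfml3* an interval of 0.02 to 0.40, with unadjusted *P* of 0.032 and 0.036 (edgeR), where 4.57% of genes had an unadjusted *P* under 0.05, and adjusted *P* of 0.85 for both.

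The interaction of hypertension and stroke, which asks whether the stroke difference itself differed between HT and NT mice, called none of the 10 and 0% of 17608 genes in edgeR, with 10.4% at an unadjusted *P* under 0.05, *Sall1* among them. DESeq2 called 22 genes, none of the 10, and limma called 0. The estimate was -1.30 for *Sall1* (95% interval -2.10 to -0.49; edgeR, unadjusted *P* = 0.0031, adjusted *P* = 0.32) and with the olfactory bulb and striatal scores as covariates it was -0.10. For the other 9 genes it was -0.22 to 0.09. Without the libraries that stand apart it was -0.88 for *Sall1* (95% interval -1.64 to -0.13; edgeR, adjusted *P* = 0.99), -0.06 for *P2ry12* and 0.03 to 0.22 for the other 8, and 7 of these 8 had been on the other side of 0. A difference between the NT and HT responses to stroke was thus not detected for these genes in either fit.

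Within groups, the 10 genes did not vary as 1 block. Likeness was measured as Pearson's r of log2(CPM + 1), taken as deviations from group means, over 24 libraries and against 17608 genes. It is a description with no test, since the libraries share depth and composition. The 3 libraries that stand apart were among the 24, and likeness was not measured without them. *Spp1*, for example, had 56.5 CPM in HT + Sham 6, against 8.20 to 17.5 CPM in the other sham libraries. In HT + Stroke 1 and 6 it had 11.1 and 12.4 CPM, against 61.3 to 166 CPM in the other stroke libraries. How far these libraries set the values of r was not tested. The 3 genes nearest to *Olfml3* were *Spp1* (0.95), *Gfap* (0.94) and *Serpina3n* (0.94), and those nearest to *Fcrls* were *AU020206* (0.93), *Vim* (0.92) and *Il2rg* (0.92). *Csf1r* was nearest to *Vsir* (0.97), *Itgb5* (0.95) and *Parp3* (0.93), and *Cx3cr1* to *S1pr3* (0.92), *Vcam1* (0.91) and *AU020206* (0.88).

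The remaining genes had other nearest neighbours. *Sall1* was nearest to *Pacsin2* (0.96), *Cacng5* (0.96) and *Meis1* (0.96), *P2ry12* to *Sypl* (0.88), *Rnf13* (0.87) and *Sgpp1* (0.87), and *Tmem119* to *Atf6b* (0.90), *Tbc1d13* (0.90) and *Tbc1d10a* (0.88). *Gpr34* was nearest to *Serp1* (0.83), *Ptbp3* (0.82) and *Slco1a5* (0.82), and those near *Siglech* included *Scarb2* (0.78) and *Idua* (0.78) and those near *P2ry13* *Gm13026* (0.80) and *Pla2g5* (0.75). Among the nearest 50 genes of each, other members of the 10 were found for 4 genes, at most 2 each: *Fcrls* for *Cx3cr1*, *Cx3cr1* for *Gpr34*, *Cx3cr1* and *P2ry12* for *Siglech*, and *Olfml3* for *Fcrls*. The correlation of *P2ry12* with *Tmem119* was -0.60, the lowest of both genes with any other of the 10.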

How the data were processed

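The authors deposited 4 tables, made from poly(A) RNA sequenced on an Illumina platform and mapped to the Ensembl mouse genome and annotation. The submitters' processing notes name featureCounts 1.5.0-p3 and DESeq2 1.20.0, and the aligner and genome build are not given in the sources used here. The deposited counts are whole reads per gene, not normalized, and the deposited FPKM values are counts that the authors divided by gene length and library size. Columns of normalized counts, group means, and the authors' log2 fold changes and P values were not used. The tables were joined by identifier into 33981 genes, and 60 comparisons of library columns found in more than 1 table gave 0 that differed.

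Groups of 6 libraries were compared with edgeR 4.0.16 (R 4.3.3), by the two-sided quasi-likelihood test with robust shrinkage, after filterByExpr (minimum count 10, total 15) and TMM scaling. P values were adjusted by Benjamini-Hochberg over all genes, with a threshold of 0.05, and 10 of 10 members passed the filter in every comparison. Alternatives were DESeq2 1.42.0, limma 3.58.1 on log2(FPKM + 1) and log2(FPKM + 0.1), other scalings, filters, covariates and libraries left out. The fits were tested on simulated data. All 10 members are named, as are all genes of the lists of ligands and of transcription factors, and the 3 genes with the smallest P in NT + Stroke vs NT + Sham in other lists, except that some genes of these rules are not reported here. The members and lists were chosen with earlier results of these data known. Depth was 15922919 to 24865998 counts per library.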

Additional observations from a re-analysis of the deposited data

Results flagged for a closer look

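Of 144 groups of 6 libraries examined, 10 held a library far from the other 5, where chance gives about 1 in 20. HT + Sham 6 had 797 summed CPM of pan-myeloid genes, against 369 to 508 in the other HT + Sham libraries, and 288 summed CPM of fibroblast and mural cell genes, against 200 to 221. NT + Stroke 4 had a *Tmem119* level relative to pan-myeloid genes of 0.54, against -0.51 to -0.14 in the other NT + Stroke libraries. The same library had 636 summed CPM of the transcription factors, against 665 to 681, and 220 summed CPM of the plasmacytoid dendritic cell genes, against 181 to 193. NT + Sham 4 had 2358 summed CPM of astrocyte genes, against 2015 to 2137, and NT + Sham 6 had 8578 summed CPM of cortical neuron genes, against 8819 to 8961. HT + Sham 5 had 4919 summed CPM of oligodendrocyte genes, against 3761 to 4142, and 312 summed CPM of blood genes, against 48.6 to 142. HT + Stroke 3 had 5147 summed CPM of oligodendrocyte genes, against 5559 to 5781. None of the 10 members was flagged in CPM in any group, and the causes were not tested.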

How the results depend on the processing

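The count of members called in NT + Stroke vs NT + Sham was 8, and was 7 to 8 with any 1 library left out. It was 7 with all 4 groups in one fit, 6 with all genes of at least 1 count, and 4 with the olfactory bulb and striatal scores as covariates. *Sall1* alone lost its call without NT + Sham 1, 2, 3 or 6 and without NT + Stroke 1, 4 or 5, with adjusted P of 0.051 to 0.065. In HT + Stroke vs HT + Sham the count was 0, and was 4 with DESeq2, 4 with all 4 groups in one fit, 5 with the libraries that stand apart left out together, and 0 to 4 with 1 library left out, where 4 were called without HT + Stroke 1 and 2 without HT + Stroke 6. In HT + Stroke vs NT + Sham the count was 5, and was 0 with the scores as covariates, 8 with the libraries that stand apart left out together, 2 with the library number as a replicate block, and 2 to 7 with 1 library left out. It was 2 without NT + Sham 6 or HT + Stroke 4, and 3 without NT + Sham 1 to 5 or HT + Stroke 2 or 5. The cause of these shifts was not tested. In the 3 other comparisons the count was 0 in every alternative run. Same-numbered libraries of 2 groups had correlations of -0.48 to 0.36, with 15 of 36 over 0.1. Libraries with different numbers were not compared, so whether the library numbers pair the libraries was not tested. The block changed no other count by over 1.5 times. The 13 called log2 fold changes kept their direction in 291 refits, and 46 of these ended the call. The 47 that were not called changed sign in 81 of 1189 refits, over 23 results. In particular, without the libraries that stand apart, the interaction estimates of *P2ry13*, *Tmem119*, *Cx3cr1*, *Gpr34*, *Csf1r*, *Fcrls* and *Olfml3* were 0.10, 0.03, 0.19, 0.04, 0.11, 0.22 and 0.12, on the other side of 0. The median relative level of the members differed by -0.82 (NT) and -0.71 (HT) without the C1q genes, *Cd68* and *Trem2* in the denominator, and by -1.26 (HT) without the libraries that stand apart, and FPKM gave the same values as CPM by construction. With medians in place of means, no member's FPKM in NT + Sham moved by more than 1 SD. The lowest count of a member in any library was 118.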

Other observations

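Other cells of the section moved in NT + Stroke vs NT + Sham beside the microglia genes. Of 7 astrocyte genes, 6 rose, with the smallest P for *Gfap* (log2 fold change 2.39), the intermediate filament of reactive astrocytes, *Aqp4* (0.73), a water channel, and *Gja1* (0.33), a gap junction protein. Of 7 oligodendrocyte genes, 3 rose, *Cnp* (0.30), *Mbp* (0.30) and *Mobp* (0.27), all genes of myelin. Of 5 blood genes none passed in edgeR, none had an unadjusted P under 0.05, and the smallest P was that of *Hba-a2* (0.24), *Hbb-bt* (0.18) and *Alas2* (-0.12).

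The genes of neighbouring regions differed as well. Of 7 olfactory bulb genes, 4 rose, *Tbx21* (1.79), *Doc2g* (1.21), *Calb2* (1.13) and *Th* (1.23), and the median was 1.21. Of 8 striatal genes none passed in edgeR and none had an unadjusted P under 0.05, with a median of 0.71, and those with the smallest P were *Penk* (0.68), *Pde10a* (0.55) and *Rgs9* (0.79). In HT + Stroke vs HT + Sham the median of the olfactory bulb genes was -0.80 and that of the striatal genes 1.35. The 2 highest levels of *Sall1*, 54.2 and 53.7 CPM, were in NT + Stroke 1 and HT + Sham 6, the 2 libraries with the highest olfactory bulb scores, 6.22 and 6.36.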
